A study of Mus musculus with 10 samples.

Results

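The Kelch-like family was described in cardiomyocytes of the atria and of the ventricles of wild-type mice, the beating muscle cells of the heart's chambers. Members were the gene symbols made of Klhl and a number, and 37 of the 25239 symbols in the deposited tables matched. Of these, 32 averaged 10 or more normalized reads across the 10 libraries and were tested, among 12422 tested genes. The groups were atrial cardiomyocytes, 5 libraries, and ventricular cardiomyocytes, 5 libraries, and all were labelled WT, with no treatment named. The sources used here do not give age, sex, strain, how the cells were isolated or whether animals were pooled. RNA-seq was run on total RNA, and a normalized read is a read count divided by a size factor of its library.

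Kelch-like proteins are substrate adaptors of ubiquitin ligases. Their BTB domain binds the scaffold cullin 3, and their kelch repeats fold into a propeller that holds the protein to be ubiquitinated. Several members are known from striated muscle, where mutations in people cause nemaline myopathy (KLHL40 and KLHL41) or cardiomyopathy (KLHL24).

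The libraries held 1790402 to 12842635 recovered reads. They fell into 2 sets that the labels do not name. Replicates 1 and 2 of both chambers had 0.215% to 0.480% of reads on the ribosomal RNA precursor Rn45s, and replicates 3 to 5 had 23.1% to 29.8%. Chamber markers matched the labels, with all 8 atrial markers higher and all 7 ventricular markers lower in atrial libraries (limma, adjusted p under 0.05), among them Myl7, Sln, Myl2 and Irx4. Of 7 tested skeletal muscle markers, 4 were higher in atrial libraries, with a summed level of 728 to 1822 normalized reads in atrial and 251 to 378 in ventricular libraries. Epicardial markers summed to 2539 to 6067 in atrial and 661 to 1711 normalized reads in ventricular libraries, with 5 of 6 called higher. Endothelial markers summed to 749.9 to 3387 in atrial and 234 to 1484 normalized reads in ventricular libraries (2 of 8 called higher), fibroblast markers to 21312 to 36361 and 9165 to 63474 (2 of 8 called lower), and smooth muscle markers to 1715 to 6587 and 9204.5 to 15685 (3 of 7 called lower). Leukocyte markers summed to 76.6 to 174 in atrial and 24.2 to 145 normalized reads in ventricular libraries (1 of 3 tested called higher). Neural markers summed to 82.0 to 166 and 44.1 to 93.4 (1 of 2 tested called higher). Red cell and platelet markers summed to 48.3 to 713 and 97.3 to 315, and none was called. Germ cell markers summed to 20.2 to 71.0 and 41.4 to 69.2, and none was called. The globin genes Hba-a1, Hbb-bs and Hbb-bt were at 0 in every library. The part of these cell types in the results was not tested, and in such bulk samples fewer cells of a type and less RNA per cell cannot be told apart.

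Levels of the members were compared with each other per length, as normalized reads per kb of merged exon, for the 36 members with a GENCODE M21 exon length. Klhl41, a muscle protein that supports the sarcomere, had the highest mean level per kb in both chambers, 421.6 ± 34.6 in atrial and 265 ± 53.9 in ventricular cells (SD, n = 5). Klhl9, known for its part in cell division, followed with 208 ± 74.5 in atrial and 227 ± 89.3 in ventricular cells. Klhl24, which in people is linked to turnover of intermediate filaments, had 173 ± 22.9 in atrial and 197 ± 75.0 per kb in ventricular cells. In ventricular cells Klhl31 stood between these, at 205 ± 71.3 per kb, whereas in atrial cells it had 137 ± 43.2 per kb. Below Klhl41 in the atrial order, Klhl9, Klhl24, Klhl7 (159 ± 3.90), Klhl31, Klhl23 (129 ± 15.8), Klhl30 (122 ± 10.5) and Klhl13 (104 ± 31.0 per kb) each lay within 1 SD of a neighbour. The 5 members highest per kb made up 58.3% of the summed level per kb in atrial and 59.0% in ventricular cells. By the plain mean over all 10 libraries, not set against length, 15 members had at least 100 normalized reads.

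**Figure D1:**
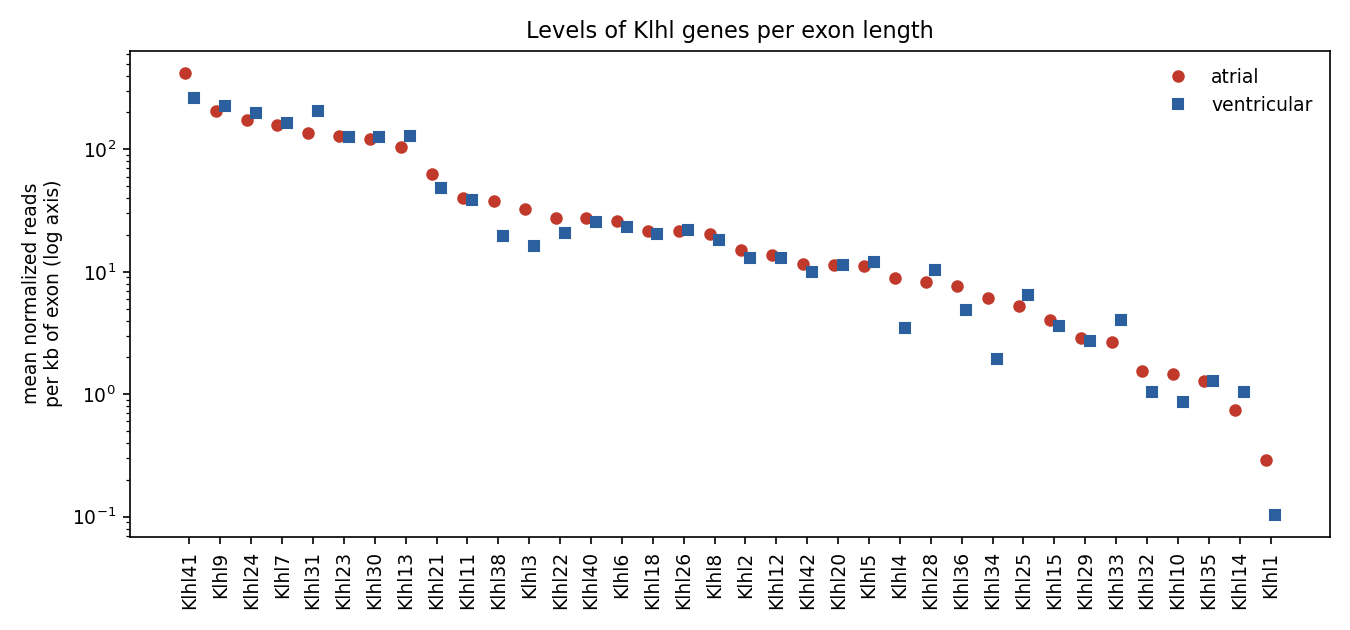
Mean level of 36 Klhl genes in normalized reads per kb of exon (log axis), in the order of the atrial means; red circles are atrial and blue squares ventricular means of 5 libraries. Klhl41 stands first in both chambers, at 421.6 and 265 per kb.

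Most of the family was not called between the 2 chambers, which does not show equal levels. Klhl3 and Klhl41 were higher in atrial cells and no member was called lower, so that 2 of 32 members, 6.25%, were called (limma's two-sided moderated test, Benjamini-Hochberg adjusted p under 0.05), against 14.7% of all 12422 genes. All genes gave 8.12% called higher and 6.56% called lower in atrial cells. The family's median log2 difference, atrial minus ventricular, was 0.11, and that of all tested genes was -0.01. The chambers' values were fully separate for 2 members, again Klhl3 and Klhl41, against 14.4% of all genes. The 30 uncalled members had log2 differences from -0.80 (Klhl33) to 1.49 (Klhl32), 19 above and 11 below 0. For 23 of these 30 the 95% interval lay within 1 log2 unit of 0, and for the other 7 it reached a 2-fold difference.

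The replicate numbers were shared by the chambers and tracked the library sets, so each count was also made with the replicate number as a block. Then 6 members were called, 4 higher (Klhl3, Klhl41, Klhl38 and Klhl22) and 2 lower in atrial cells (Klhl31 and Klhl13), against 32.3% of all genes, 16.3% higher and 16% lower. With library set as a term 8 members were called, these 6 and Klhl21 and Klhl17, 6 higher and 2 lower, against 31.8% of all genes, 16% higher and 15.8% lower. Within replicates 3 to 5 alone 14 members were called, 10 higher and 4 lower, against 52.8% of all genes, 26.2% higher and 26.6% lower. Within replicates 1 and 2 alone 0 were called, against 5.14% of all genes, 3.09% higher and 2.04% lower, with 3 members at an unadjusted p under 0.05. On the recovered reads, edgeR called 3 members, all higher, against 16.1% of all genes (8.77% higher and 7.29% lower), and DESeq2 called 4, all higher, against 20.7% (10.9% higher and 9.79% lower). With both directions counted, the called share of the family was below that of all genes in each of these fits, and so was the share called lower. The share called higher was above that of all genes with library set as a term, within replicates 3 to 5, with edgeR and with DESeq2. It was below with the replicate block and within replicates 1 and 2. These fits reuse the same libraries, and the family's share was not tested against that of all genes.

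**Figure D2:**
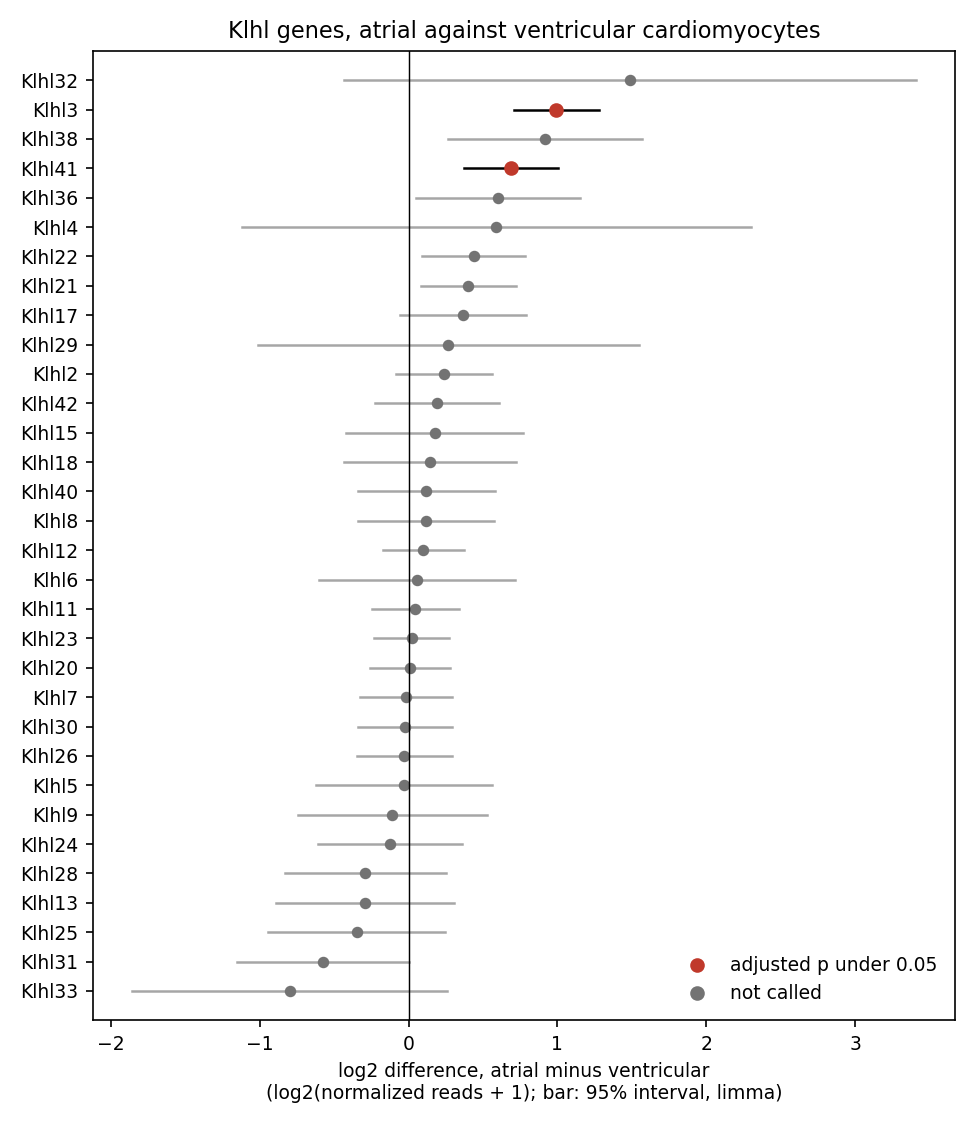
Log2 difference of the 32 tested Klhl genes, atrial minus ventricular, on the log2(normalized reads + 1) scale, with 95% intervals from limma; red points passed an adjusted p of 0.05 and grey points did not. Klhl3 (0.99) and Klhl41 (0.69) are the red points, and the widest interval is that of Klhl32.

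Klhl3 was about doubled in atrial cells. KLHL3 recruits WNK kinases to cullin 3, and its mutation in people causes a salt-sensitive hypertension with high potassium. Klhl3 (ENSMUSG00000014164, chromosome 13, 58000228 to 58113592, GRCm38, introns included) had 232, 199, 241, 267 and 245 normalized reads in atrial replicates 1 to 5, against 142, 127, 115, 103 and 107 in ventricular replicates 1 to 5. Every atrial library lay above every ventricular one. The means were 236 ± 24.7 in atrial cells and 119 ± 15.9 normalized reads in ventricular cardiomyocytes (SD, n = 5), which is 1.99-fold and a log2 difference of 0.99 ± 0.13 (SE; limma, adjusted p = 0.000455), and the gene was called without any single library. Replicates 1 and 2 gave a log2 difference of 0.67 and replicates 3 to 5 one of 1.21, effects whose inequality was not called (limma interaction, adjusted p = 0.113). Within replicates 1 and 2 alone, with 4 libraries, Klhl3 was not called (adjusted p = 0.188).

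Kinases and a transporter of the WNK pathway were in a list of 34 known substrates and partners of the family. Of these 34 genes, 32 were tested. In that list 1 gene was higher and 2 were lower in atrial cells, with a median log2 difference of 0.02. That is 9.38% called, against 14.7% of all genes. With the replicate block 7 were higher and 8 lower, against 32.3% of all genes called. Within replicates 3 to 5, 12 were higher and 12 lower, against 52.8% of all genes called. The 2 genes called lower over all libraries belong to the WNK pathway. A link between Klhl3 and the levels of their transcripts was not tested. Stk39, the kinase SPAK that WNK kinases switch on, had 1519, 1435, 1684, 1688 and 1825 normalized reads in atrial replicates 1 to 5, against 2927, 2554, 2438, 2340 and 2382 in ventricular replicates 1 to 5. The groups did not overlap, and the log2 difference was -0.63 ± 0.11 (limma, adjusted p = 0.00248). Slc12a2, the sodium-potassium-chloride cotransporter NKCC1 that SPAK phosphorylates, averaged 247 ± 23.8 in atrial cells and 403 ± 82.2 normalized reads in ventricular cardiomyocytes (SD, n = 5), for a log2 difference of -0.68 ± 0.16 (limma, adjusted p = 0.0153). Ventricular replicate 2, at 266 normalized reads, fell inside the atrial range for Slc12a2. The WNK genes, looked at after their values were seen, did not pass the test. Wnk1 averaged 2643 ± 1124 in atrial cells and 3093 ± 1404 normalized reads in ventricular cardiomyocytes (adjusted p = 0.841). Wnk2 averaged 363 ± 212 in atrial cells and 105 ± 36.5 normalized reads in ventricular cardiomyocytes (adjusted p = 0.0845; 0.00194 with the replicate block, 0.00717 without atrial replicate 2), whereas Wnk4 averaged 98.4 ± 57.8 in atrial cells and 37.8 ± 14.6 normalized reads in ventricular cardiomyocytes (adjusted p = 0.185; 0.0118 with the block). The third called gene of the list was Dapk1, a death-associated kinase that KLHL20 targets in human cells, at 143, 125, 99.98, 74.3 and 97.2 normalized reads in atrial replicates 1 to 5 against 62.3, 53.6, 35.3, 35.4 and 43.2 in ventricular replicates 1 to 5. Its groups did not overlap (log2 difference 1.21 ± 0.22, limma, adjusted p = 0.00393), while Klhl20 itself averaged 146 ± 16.5 in atrial cells and 145 ± 14.1 normalized reads in ventricular cardiomyocytes (SD, n = 5).

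Klhl41 was the other member higher in atrial cells. KLHL41 is a sarcomere-associated protein that stabilizes nebulin, and its loss in people causes nemaline myopathy. Klhl41 (ENSMUSG00000075307, chromosome 2, 69670120 to 69684230, GRCm38) had 1207, 970.2, 1041, 1075 and 1037 normalized reads in atrial replicates 1 to 5, against 848, 770.2, 636, 519 and 576 in ventricular replicates 1 to 5. The groups did not overlap, and the lowest atrial value was above the highest ventricular one. Means of 1066 ± 87.4 in atrial cells and 669.9 ± 136 normalized reads in ventricular cardiomyocytes (SD, n = 5) were 1.59-fold apart, a log2 difference of 0.69 ± 0.14 (limma, adjusted p = 0.00788, and 0.00280 to 0.0248 when each library was left out in turn). Replicates 1 and 2 gave a log2 difference of 0.42, which was not called (adjusted p = 0.299), and replicates 3 to 5 one of 0.87. The summed skeletal muscle markers were higher in the same libraries, at 728 to 1822 in atrial and 251 to 378 normalized reads in ventricular libraries, led by the myosin Myh8 with means of 714 in atrial and 30.4 in ventricular cells. Myh3, another developmental skeletal myosin, which is not in that list and was looked at after its values were seen, was lower in atrial cells (log2 difference -3.77 ± 0.67, limma, adjusted p = 0.00334). Myod1, a defining transcription factor of skeletal muscle, averaged 0.552 in atrial cells and 0.692 normalized reads in ventricular cardiomyocytes. Among 7 tested genes of the list, 4 were called higher in atrial cells and 1 had an estimate below 0. Actn3, among these 4, had a log2 difference of 2.21 ± 0.51 (limma, adjusted p = 0.0137). The part of the genes of that list in the Klhl41 difference was not tested. Klhl23, which lies 138 kb from Klhl41 on chromosome 2, averaged 635 ± 77.9 in atrial cells and 623 ± 42.5 normalized reads in ventricular cardiomyocytes (log2 difference 0.02 ± 0.11).

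The sequence before the start site of the 2 called members is shown because these are the members the comparison turned on. RefSeq (GRCm38.p6) gave promoters for 31 of the 37 members, and the 250 bases before the start are printed, 5′ to 3′ on the gene's strand, with E-boxes (CANNTG), MEF2 site cores (CTA and TAG around 4 bases that are each A or T) and TEAD sites (CATTCC) in capitals. The Klhl3 window is chr13:58113648-58113897 on the minus strand, and RefSeq lists other Klhl3 transcripts that start farther upstream. The Klhl41 window is chr2:69669870-69670119 on the plus strand.
Klhl3: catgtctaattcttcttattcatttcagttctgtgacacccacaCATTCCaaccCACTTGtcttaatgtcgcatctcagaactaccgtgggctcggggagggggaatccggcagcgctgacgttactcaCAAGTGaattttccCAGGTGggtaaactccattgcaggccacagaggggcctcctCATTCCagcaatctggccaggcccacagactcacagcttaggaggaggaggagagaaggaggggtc
Klhl41: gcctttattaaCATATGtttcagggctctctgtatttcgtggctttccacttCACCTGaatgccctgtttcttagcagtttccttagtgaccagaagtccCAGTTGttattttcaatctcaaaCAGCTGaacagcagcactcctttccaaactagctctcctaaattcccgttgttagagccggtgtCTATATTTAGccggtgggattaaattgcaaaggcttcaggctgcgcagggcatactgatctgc
The Klhl41 window held 4 E-boxes and 1 MEF2 site core, at -63 to -54 from the start. The Klhl3 window held 3 E-boxes and 2 TEAD sites and no MEF2 site core. Both strands were searched. SRF, GATA and T-box sites and TATA, CCAAT and GC boxes were also looked for, with no match in either window. An E-box was present in 66.2% of 32851 promoter windows of the same length in the table, a TEAD site in 12.6% and a MEF2 site core in 0.508%. Of the 41 windows of members, 2 held a MEF2 site core, that of Klhl41 and that of Klhl33, another member listed for muscle. A match is a description of these letters and does not show a working site.

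**Figure D3:**
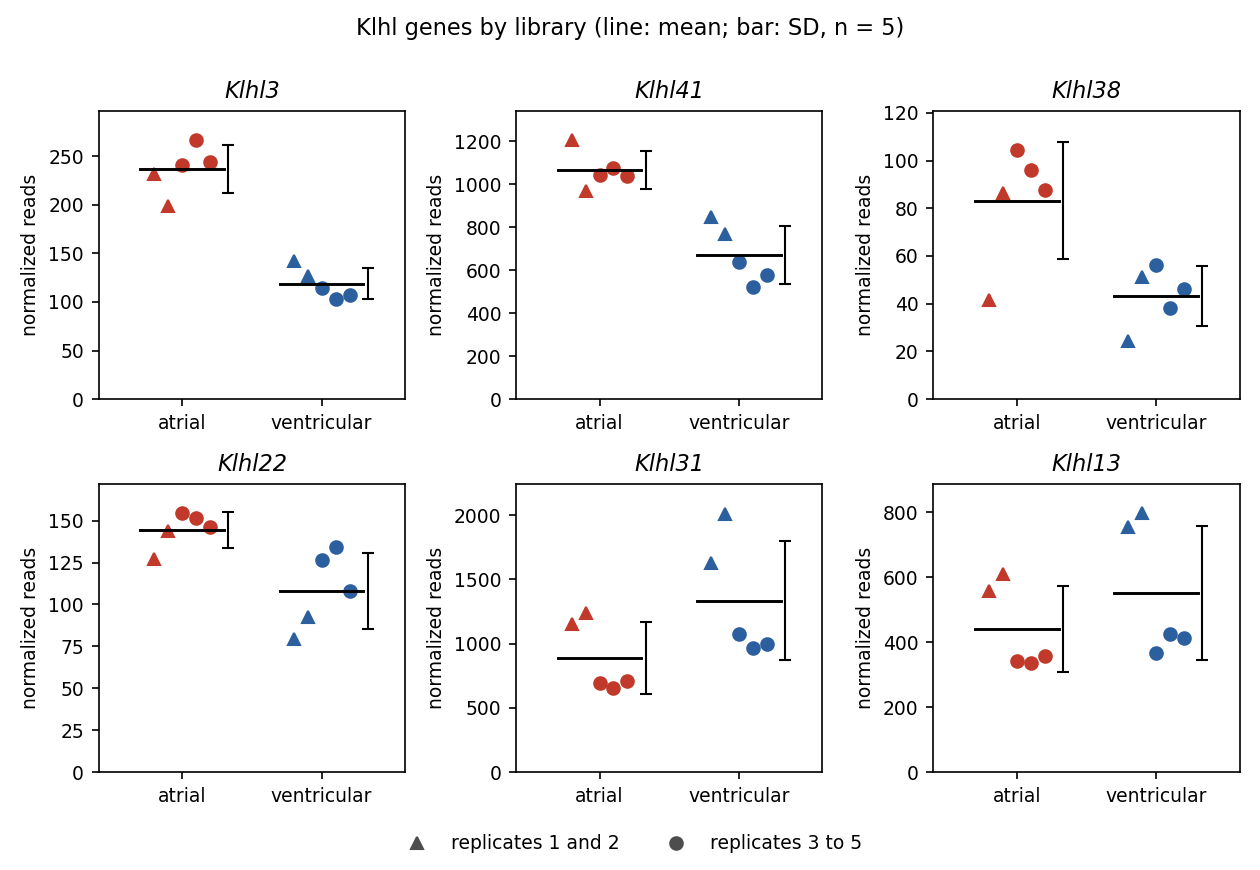
Normalized reads of 6 Klhl genes in each atrial (red) and ventricular (blue) library; triangles are replicates 1 and 2, circles replicates 3 to 5, lines the means and bars the SD (n = 5). Klhl3 and Klhl41 separate the chambers completely, while in Klhl31 and Klhl13 the library sets differ and the atrial points lie lower within each set.

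The other 6 tested members listed for striated muscle were not called by limma over all libraries, while Klhl38 and Klhl31 were called in other fits. Klhl38, whose transcript is muscle-enriched (ENSMUSG00000022357, chromosome 15, 58314573 to 58324169), had 41.4, 86.4, 105, 96.1 and 87.5 normalized reads in atrial replicates 1 to 5, against 24.2, 51.2, 56.4, 38.1 and 46.3 in ventricular replicates 1 to 5. Atrial replicate 1 was the low atrial value and lay among the ventricular ones, and the atrial value was the higher in 5 of 5 same-numbered pairs. Its log2 difference was 0.92 ± 0.30 (limma, adjusted p = 0.0645; 0.00142 with the replicate block; 0.0361 with edgeR on recovered reads). It was also called without atrial replicate 1 (adjusted p = 0.0102), with library set as a term (0.0124) and within replicates 3 to 5 (3.45e-07). Of the 7 tested skeletal muscle markers, 4 were called higher in atrial libraries and 1 had an estimate below 0. Their part in the Klhl38 difference was not tested.

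Klhl31, which keeps skeletal muscle fibres intact in mice, was the member with the lowest log2 difference after Klhl33. It had 1149, 1239, 693, 654 and 712 normalized reads in atrial replicates 1 to 5, against 1626, 2006, 1074, 963 and 994 in ventricular replicates 1 to 5. Replicates 1 and 2 were high in both chambers, so the groups overlapped, and the atrial value was the lower in 5 of 5 same-numbered pairs. The log2 difference was -0.57 ± 0.26 (limma, adjusted p = 0.195), and it was called with the replicate block (adjusted p = 0.000278), with library set as a term (0.000112) and within replicates 3 to 5 (8.11e-09). Replicates 1 and 2 gave -0.60 and replicates 3 to 5 gave -0.56.

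Klhl24 had the highest mean reads of the family, not corrected for length, with 2033, 1999, 1555, 1611 and 1612 normalized reads in atrial replicates 1 to 5, against 3266, 2196, 1584, 1450 and 1533 in ventricular replicates 1 to 5. Ventricular replicate 1 stood above all other libraries, and the remaining values of the chambers overlapped (log2 difference -0.12 ± 0.22, limma, adjusted p = 0.818). Klhl30, another muscle-enriched gene, had 357, 433, 358, 363 and 369 normalized reads in atrial replicates 1 to 5, against 426, 509, 341, 343 and 317 in ventricular replicates 1 to 5. The chambers overlapped (log2 difference -0.02 ± 0.14), with a 95% interval of -0.34 to 0.29. Klhl40, which stabilizes nebulin and leiomodin 3 and is abundant in skeletal muscle, had 64.8, 82.0, 66.5, 58.4 and 69.5 normalized reads in atrial replicates 1 to 5, against 38.1, 60.9, 79.9, 66.8 and 76.0 in ventricular replicates 1 to 5. Its values overlapped (log2 difference 0.12 ± 0.21, 95% interval -0.34 to 0.58). Klhl33 had 22.1, 2.88, 17.6, 26.5 and 15.4 normalized reads in atrial replicates 1 to 5, against 31.1, 19.5, 22.9, 28.7 and 24.7 in ventricular replicates 1 to 5, lower in atrial libraries in 5 of 5 pairs but not called (-0.80 ± 0.48, adjusted p = 0.347). Of the partners of the muscle members, Neb and Lmod3 were also uncalled. Neb, nebulin, averaged 159 ± 69.7 in atrial cells and 74.2 ± 55.5 normalized reads in ventricular cardiomyocytes (adjusted p = 0.0759; 0.00429 with the block, 0.00809 without ventricular replicate 1), and Lmod3, leiomodin 3, averaged 433 ± 177 in atrial and 821.5 ± 364 (adjusted p = 0.175; 6.06e-05 with the block). Both were looked at after their values were seen.

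Of the 9 members that act on signalling or trafficking, Klhl3 was the called gene. Klhl22, which targets the nutrient-sensing protein DEPDC5 in human cells, had 127, 144, 155, 152 and 146 normalized reads in atrial replicates 1 to 5, against 79.6, 92.6, 126, 134 and 108 in ventricular replicates 1 to 5. Atrial replicate 1 lay at about the level of ventricular replicates 3 and 4, and the atrial value was the higher in 5 of 5 pairs (log2 difference 0.44 ± 0.16, limma, adjusted p = 0.0966; 0.0152 with the block). Klhl2, a relative of Klhl3 that also binds WNK kinases, averaged 140.0 ± 13.9 in atrial cells and 119.9 ± 22.3 normalized reads in ventricular cardiomyocytes (0.24 ± 0.15, adjusted p = 0.368). Klhl2 was called within replicates 3 to 5, at 0.37 (limma, adjusted p = 0.00144). Klhl7, mutated in people with a retinal dystrophy, had 644, 629, 632, 636 and 603 normalized reads in atrial replicates 1 to 5, against 889, 680.0, 544, 555 and 568 in ventricular replicates 1 to 5. The atrial values stayed close together, the ventricular ones lay on both sides of them, and the log2 difference was -0.02 ± 0.14. Klhl12, an adaptor for Dishevelled and for the coat protein SEC31, averaged 158 ± 13.8 in atrial cells and 147 ± 18.7 normalized reads in ventricular cardiomyocytes. Klhl42 averaged 74.4 ± 17.7 in atrial and 64.5 ± 11.1, Klhl15, an adaptor for a phosphatase 2A subunit, 39.5 ± 13.1 in atrial and 34.95 ± 11.5, and Klhl25 20.2 ± 7.19 in atrial cells and 25.0 ± 3.56 normalized reads in ventricular cardiomyocytes, all uncalled.

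Of the 4 members known from cell division, none was called between the chambers over all libraries, and Klhl9, Klhl13 and Klhl18 differed between the library sets. Klhl9 and Klhl13 bring cullin 3 to Aurora B kinase in human cells. Klhl9 had 963, 1372, 633, 674 and 691 normalized reads in atrial replicates 1 to 5, against 1235, 1458, 669.9, 708 and 667 in ventricular replicates 1 to 5. Klhl13 had 557, 610.3, 343, 337 and 358 normalized reads in atrial replicates 1 to 5, against 754, 797, 368, 426 and 413 in ventricular replicates 1 to 5. In both genes replicates 1 and 2 of each chamber were the high ones and the chambers overlapped. Klhl13 was lower in atrial cells in 5 of 5 pairs (log2 difference -0.29 ± 0.27, limma, adjusted p = 0.591; 0.0172 with the block), and Klhl9 in 4 of 5 (-0.11 ± 0.29, adjusted p = 0.888). No stretch of 50 bases was shared between the GENCODE M21 transcripts of members, these included. Klhl17 has no entry of that name there and was not compared. Klhl21, a further Aurora B adaptor, averaged 253 ± 17.9 in atrial cells and 194 ± 38.7 normalized reads in ventricular cardiomyocytes (0.40 ± 0.15, adjusted p = 0.0986). Klhl21 was called with DESeq2 (adjusted p = 0.0351), with library set as a term (0.0390), within replicates 3 to 5 (0.00120) and without ventricular replicate 2 (0.0436), and it shifted by -0.01 ± 0.14 between the library sets. Klhl18 averaged 152 ± 29.9 in atrial and 143 ± 45.5 (0.14 ± 0.26).

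With chamber as a term, 9 of the 32 members were lower and 4 higher in replicates 3 to 5 than in replicates 1 and 2 (limma, adjusted p under 0.05), against 52.7% of all genes, 24.1% lower and 28.6% higher. The sets were defined from the data, so this count describes them. Klhl4 had the largest called shift, at -2.23 ± 0.40 on the log2 scale. The shifts of Klhl9, Klhl13 and Klhl31 were -0.88 ± 0.10, -0.85 ± 0.08 and -0.82 ± 0.08. Klhl15 shifted by -0.66 ± 0.18 and Klhl24 by -0.58 ± 0.12. The 4 higher members were Klhl29 (1.28 ± 0.43), Klhl18 (0.69 ± 0.15), Klhl5 (0.62 ± 0.19) and Klhl22 (0.33 ± 0.11). The chamber difference itself was not called as unequal between the sets for any of the 32 members (limma interaction, smallest adjusted p = 0.113, against 5.21% of all genes called), and it had the same sign in both sets for 18 of 32.

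**Figure D4:**
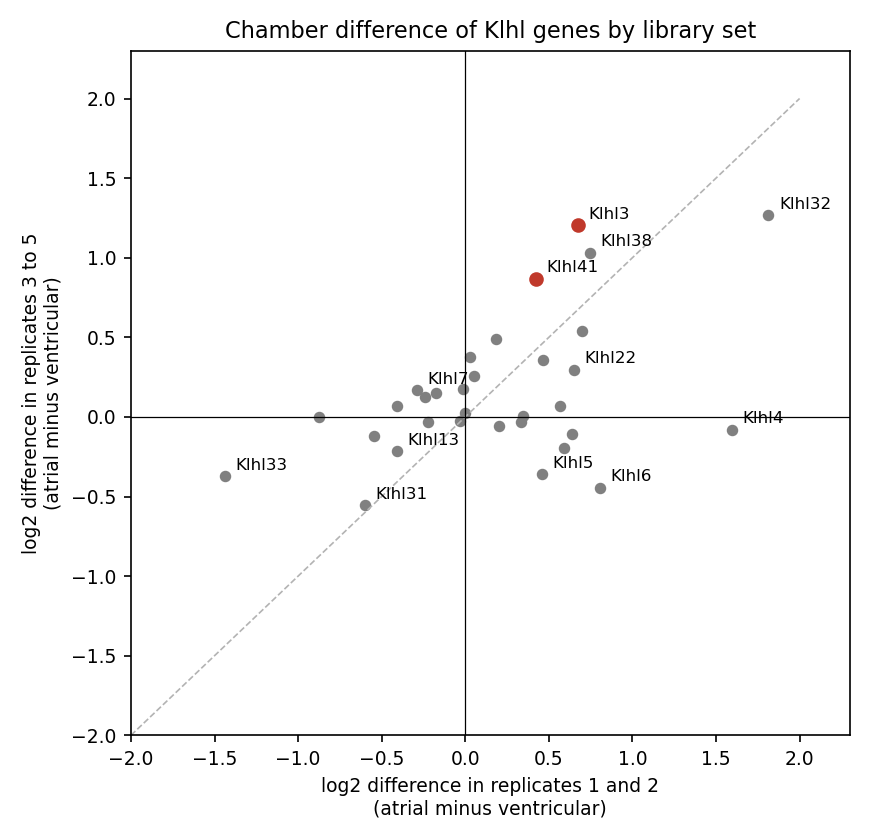
Chamber difference of the 32 tested Klhl genes within replicates 1 and 2 (x axis) and within replicates 3 to 5 (y axis), both as log2 atrial minus ventricular; the dashed line marks equal values and red points passed the test over all libraries. Klhl3, Klhl41 and Klhl38 lie above 0 on both axes and Klhl31 below 0 on both, while Klhl6 and Klhl5 change sign.

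The remaining tested members were not called by limma over all libraries. Klhl36 averaged 17.9 ± 3.44 in atrial cells and 11.5 ± 2.64 normalized reads in ventricular cardiomyocytes, higher in 5 of 5 pairs but uncalled (log2 difference 0.60 ± 0.25, limma, adjusted p = 0.153). Klhl17, an actin-binding protein of neurons, averaged 87.1 ± 12.3 in atrial and 68.7 ± 18.7 (adjusted p = 0.269; 0.0469 with library set as a term and 0.00137 within replicates 3 to 5). Its RefSeq span overlaps Plekhn1, and GENCODE M21 has no entry named Klhl17. The reads of Klhl17 may therefore be split with Plekhn1, though overlap of their exons is not known. Klhl6, known from B lymphocytes, averaged 67.2 ± 37.4 in atrial cells and 60.3 ± 15.5 normalized reads in ventricular cardiomyocytes, and atrial replicate 1, at 134, was the high library. The summed leukocyte markers had 76.6 to 174 in atrial and 24.2 to 145 normalized reads in ventricular libraries. Of 3 tested leukocyte markers, 1 was called higher in atrial libraries, and their part in the Klhl6 level was not tested. Klhl4 ranged from 4.54 to 97.9 in atrial and from 4.96 to 20.8 normalized reads in ventricular libraries, with its high values in replicates 1 and 2. Klhl32 ranged from 5.79 to 27.6 in atrial and from 0 to 34.6 in ventricular libraries, which leaves its log2 difference of 1.49 ± 0.87 with a 95% interval of -0.44 to 3.41. Without ventricular replicate 1, its high library, Klhl32 was called at 2.27 (limma, adjusted p = 0.0286). Klhl23 had 498, 659, 682, 685 and 650.0 normalized reads in atrial replicates 1 to 5. Ventricular replicates 1 to 5 had 616, 678, 646, 564 and 609.7, and the chambers overlapped over all libraries. Within replicates 3 to 5 the Klhl23 values did not overlap, and the gene was called at 0.15 (limma, adjusted p = 0.0412). Klhl5, Klhl8, Klhl11, Klhl26, Klhl28 and Klhl29 had log2 differences of -0.29 (Klhl28) to 0.27 (Klhl29), all uncalled over all libraries. Within replicates 3 to 5 Klhl5 was called at -0.36 (limma, adjusted p = 0.00958), while replicates 1 and 2 gave 0.46. The 5 members below the filter reached at most 31.7 normalized reads (Klhl34, in atrial replicate 1). Klhl34, listed for striated muscle, averaged 11.9 ± 12.6 in atrial cells and 3.73 ± 3.10 normalized reads in ventricular cardiomyocytes and was higher in atrial libraries in 5 of 5 pairs, with no test. It had reads in 10 libraries, Klhl10, a gene of male germ cells, in 9, Klhl35 in 9, Klhl14 in 3 and Klhl1, a neuronal gene, in 2. A value of 0 allows up to 3 reads, 1.70 to 10.4 normalized reads depending on the library, which covers counting error only.

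The lists of genes around the family are read against the 14.7% of all genes called by limma over all libraries, the 32.3% called with the replicate block and the 52.8% called within replicates 3 to 5. Within replicates 3 to 5, 7 of the 11 tested kelch proteins with other names and 15 of the 30 cullin 3 ligase genes were called. Of the 32 tested substrates and partners, 12 were called higher and 12 lower there. The 26 other BTB adaptors gave 4 higher and 9 lower, and the 12 kelch repeat genes without BTB 2 higher and 2 lower. Of 14 kelch proteins with a BTB domain and another name, 11 were tested and 1 was lower in atrial cells, with a median log2 difference of -0.19 (3 lower with the replicate block). It was Ivns1abp, also known as KLHL39, which binds the influenza protein NS1 and actin. Ivns1abp had 2019, 1786, 1596, 1749 and 1566 normalized reads in atrial replicates 1 to 5, against 8909, 5820, 4316, 3898 and 4168 in ventricular replicates 1 to 5. Every ventricular library was above every atrial one, with ventricular replicate 1 the highest (log2 difference -1.57 ± 0.21, limma, adjusted p = 0.000653). Keap1, the adaptor of the antioxidant factor NRF2, averaged 300.2 ± 34.6 in atrial cells and 356 ± 54.1 normalized reads in ventricular cardiomyocytes (adjusted p = 0.295; 0.0429 with the block).

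Of 30 genes of the cullin 3 ligase and its NEDD8 and COP9 regulators, 1 was lower and none higher in atrial cells, with a median of -0.13 (3 higher and 7 lower with the block). Uba3, a subunit of the enzyme that activates NEDD8, had 800.0, 1032, 923, 919 and 929 normalized reads in atrial replicates 1 to 5, against 1204, 1204, 1115, 1132 and 1114 in ventricular replicates 1 to 5. The groups did not overlap, the log2 difference was -0.33 ± 0.10 (limma, adjusted p = 0.0414), and the call held in 1 of 10 fits that left out a library, that without atrial replicate 2 (adjusted p 0.0249 to 0.0933). Cul3, the scaffold, averaged 2019 ± 350 in atrial cells and 2032 ± 325 normalized reads in ventricular cardiomyocytes (log2 difference -0.01 ± 0.16, adjusted p = 0.978). Of 26 other BTB adaptors, 1 was higher in atrial cells and none lower, with a median of -0.08 (3 higher and 2 lower with the block). It was Rhobtb1, which carries BTB domains, at 553, 600.2, 578, 651 and 664 normalized reads in atrial replicates 1 to 5, against 298, 312, 238, 231 and 219.9 in ventricular replicates 1 to 5. The groups did not overlap (log2 difference 1.24 ± 0.13, limma, adjusted p = 9.33e-05), 2.35-fold. Of 12 tested genes with kelch repeats and no BTB domain, none was called by limma or edgeR, 1 was called by DESeq2, and 2 had an unadjusted p under 0.05, Klhdc2 and Klhdc4 (adjusted p = 0.105 and 0.137), with a list median of -0.12.

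**Figure D5:**
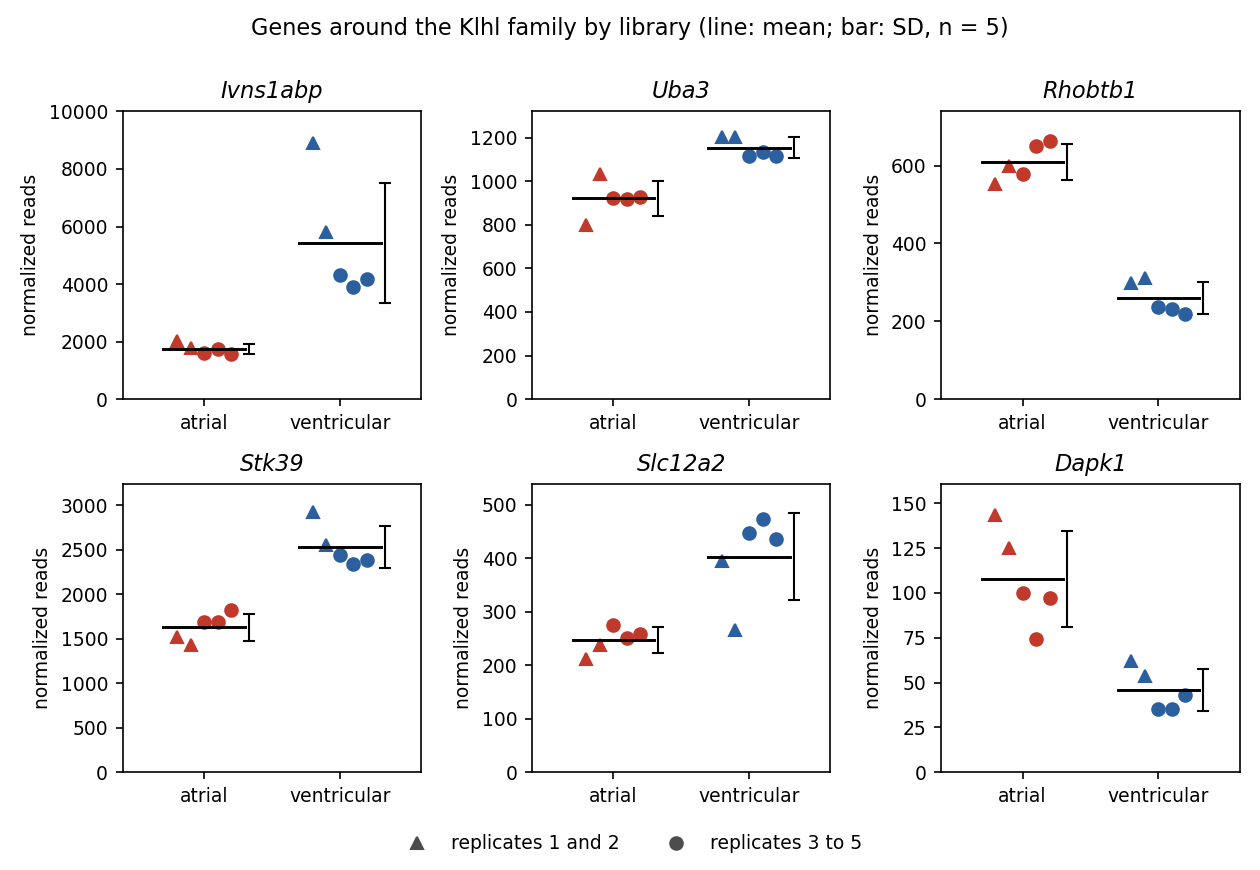
Normalized reads of 6 called genes from the lists around the Klhl family in each atrial (red) and ventricular (blue) library; triangles are replicates 1 and 2, circles replicates 3 to 5, lines the means and bars the SD (n = 5). Rhobtb1 and Dapk1 are higher and Ivns1abp, Uba3, Stk39 and Slc12a2 lower in atrial cells, with overlap in Slc12a2 alone among these 6.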

How the data were processed

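RNA was measured by RNA-seq in 5 atrial and 5 ventricular cardiomyocyte libraries of wild-type mice. Trimmomatic, HISAT2 and featureCounts were used on GRCm38 (mm10), per the submitters' processing notes; the sources used here do not give versions, annotation or strand setting, so reads of antisense partners cannot be told apart. Deposited is 1 signal for each gene and library, normalized by the authors with DESeq2, per the file headers. Every value (100%) was a whole multiple of the library's smallest step within 0.01, which gave back whole reads. Genes averaging 10 or more normalized reads were tested with limma 3.58.1 (R 4.3.3; trend and robust variance, two-sided) on log2(normalized reads + 1), which understates changes of low genes, with Benjamini-Hochberg adjustment at 0.05 over 12422 genes. Log2 differences are atrial minus ventricular. Count tests on the recovered reads (edgeR 4.0.16 called 1995 genes, DESeq2 1.42.0 called 2563), other scalings and filters, library subsets and the replicate block were alternatives, and leaving out both libraries numbered 1 was chosen after seeing the data. The limma fit was also tested on simulated data, where it recovered 88% of 4-fold and 51% of 2-fold changes. An uncalled gene may therefore still differ.

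Atrial and ventricular libraries of the same number deviated together from their group means (coefficients 0.556 to 0.637). Within the library sets the coefficients were 0.405 for replicates 1 and 2, which share that value, and -0.0394 to 0.0678 for replicates 3 to 5. In replicates 3 to 5 the common deviation thus followed the library sets, and pairing by number was not seen. Between replicates 1 and 2 part of it remained by number. The replicate block and the same-numbered pairs therefore rest on the shared library sets and, for replicates 1 and 2, also on that likeness by number. Replicates differed by more than sampling noise (chi-square per degree of freedom 2.21 or more). The labels name no separate animals; p-values therefore reflect library spread alone, which may be technical. Positions are from GENCODE M21 (Klhl17 from RefSeq). Members and lists were chosen with earlier results of these data known. By rule, each called member, the uncalled members among the 8 with the highest mean, the tested muscle members, and up to 5 called genes of each other list (or, with no call, the 2 of lowest p) are given with their values.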

Additional observations from a re-analysis of the deposited data

Results flagged for a closer look

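In 10 of 64 groups of 5 libraries (32 members in each chamber), a single library stood apart from the other 4. Its gap to the nearest exceeded Dixon's 95% critical share of the range, 0.71. Chance flags about 5% of groups where the 5 libraries are alike, which does not hold here because the library sets differ. The share of such groups over all genes was not taken, so the count does not describe the family apart from its libraries. In atrial replicate 1, Klhl6 had 134 normalized reads (46.0 to 56.1 in the other atrial libraries), Klhl15 had 62.1 (29.0 to 37.4), Klhl23 had 498 (650.0 to 685) and Klhl38 had 41.4 (86.4 to 105). In atrial replicate 2, Klhl2 had 164 normalized reads (131 to 139.7), Klhl30 had 433 (357 to 369) and Klhl42 had 105 (61.3 to 71.7). In ventricular replicate 1, Klhl26 had 55.4 normalized reads (71.7 to 75.6 in the other ventricular libraries) and Klhl32 had 34.6 (0 to 2.67). In ventricular replicate 3, Klhl36 had 16.1 normalized reads (9.75 to 11.1).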

How the results depend on the processing

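Klhl3 and Klhl41 were called under each of the 25 alternatives except replicates 1 and 2 alone, and neither changed sign. Over the alternatives, 48 of 50 values of called members and 710 of 743 of uncalled ones stayed on the same side of the threshold with no called sign change. For the 6 called genes of the other lists this held for 131 of 150 values, and the 19 others lost the call: Uba3 in 16, Slc12a2 with equal totals without Rn45s and Lars2 and within replicates 1 and 2, and Dapk1 within replicates 1 and 2. Against 2 called members, 4 were called with equal totals, 4 with DESeq2, 4 without both libraries numbered 1, 6 with the replicate block, 8 with library set as a term, 14 within replicates 3 to 5 and 0 within replicates 1 and 2, and 2 to 3 with each library left out. The number of genes called between chambers, 1824, varied more: 4017 were called with the replicate block, 3955 with library set as a term, 638 within replicates 1 and 2, 6561 within replicates 3 to 5, and 1365 to 1938 with each library left out. Equal totals turned the share of calls toward atrial cells to 65.3%, against 55.3% as deposited, and shifted the median of all genes to 0.06. Within replicates 3 to 5, Klhl7 was called at 0.17 and Klhl6 at -0.44, each with the sign turned; the cause was not tested.

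In the other lists, kelch proteins with other names gave 2 calls with DESeq2, 3 with the replicate block, 3 without both libraries numbered 1, 7 within replicates 3 to 5 and 1 to 3 with each library left out, against 1. The cullin 3 ligase list gave 0 calls without the filter, with TMM, with equal totals without Rn45s and Lars2, without trend and robust variance, and within replicates 1 and 2, 3 with edgeR, 4 without both libraries numbered 1, 5 with DESeq2, 10 with the replicate block, 8 with library set, 15 within replicates 3 to 5, and 0 to 2 with each library left out, against 1. Other BTB adaptors gave 2 with DESeq2, 2 without both libraries numbered 1, 5 with the replicate block, 4 with library set, 13 within replicates 3 to 5 and 1 to 2 with each library left out, against 1. Kelch repeat genes without BTB gave 1 with DESeq2, 2 with the replicate block, 2 with library set and 4 within replicates 3 to 5, against 0. Substrates and partners gave 5 with equal totals without Rn45s and Lars2, 6 with DESeq2, 5 without both libraries numbered 1, 15 with the replicate block, 14 with library set, 1 within replicates 1 and 2, 24 within replicates 3 to 5 and 3 to 5 with each library left out, against 3. Replicates 1 and 2 held 1790402 to 4445287 reads, which limits members with few reads.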
